A study of Mus musculus with 4 samples.

Results

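Mammalian target of rapamycin (mTOR) is a kinase that works in a pair of multiprotein complexes, and this account follows the mRNAs of 10 genes that build or control them in mouse kidney cells. The 10 genes were taken from a list by symbol, out of 32285 genes in the deposited count matrices. The rule used no measured value, but the list was chosen with earlier results of these data known. The genes were the kinase Mtor itself, the complex 1 scaffold Rptor, the complex 2 scaffold Rictor, the shared subunit Mlst8, the inhibitory subunits Deptor and Akt1s1, the activating GTPase Rheb, the Rheb inhibitors Tsc1 and Tsc2, and the stress-induced inhibitor Ddit4. All 10 had reads in each of the 4 libraries.

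The libraries were droplet single-cell RNA libraries from whole kidneys of male C3H mice, all 18 weeks old. WT mice were wild type, and Sweet Pee (SP) mice were homozygous for a missense mutation of Slc5a2, the gene of the glucose cotransporter SGLT2 of the proximal tubule, which removes its function in every cell that uses it. Each genotype was fed a normal diet (ND) or a high-fat diet (HFD) with 60% of calories from fat, for 8 weeks from 10 weeks of age, and the conditions are written WT-ND and WT-HFD for the wild type and SP-ND and SP-HFD for the mutant. Each condition was 1 library and the sources used here do not give the number of mice behind it, so no difference below could be set against a spread between animals, and no test between conditions was possible.

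In the first complex, mTORC1, the kinase is joined by RPTOR and MLST8 and drives protein, lipid and nucleotide synthesis when amino acids and growth factors are plentiful. In the second, mTORC2, RICTOR takes the place of RPTOR, and AKT and SGK1 are its substrates. RHEB in its GTP form switches mTORC1 on at the lysosome, the TSC1 and TSC2 proteins switch RHEB off, and DDIT4, also called REDD1, acts through TSC2 when oxygen or energy is short or glucocorticoids are high. In the kidney, mTORC1 has been studied mainly in podocytes and in the proximal tubule, where it links nutrient supply to reabsorption and cell growth.

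The promoters of Mtor and Ddit4 are shown because Mtor had the largest ratio of a member in proximal tubule-like cells and Ddit4 was called in the most classes. RefSeq promoter windows on build GRCm38.p6, the build called mm10, were at hand for 9 of the 10 members, all but Deptor. Each sequence below is on the gene's strand, 5′ to 3′, and ends just before the first start of the gene in the RefSeq or the GENCODE annotation, which is the RefSeq start for Mtor and the GENCODE start for Ddit4. Capitals mark the CCAAT box on either strand (CCAAT or ATTGG) and, in Ddit4, the core of the hypoxia response element (ACGTG). The Mtor window was chr4:148448332-148448581 on the plus strand and the Ddit4 window was chr10:59951835-59952020 on the minus strand.
Mtor: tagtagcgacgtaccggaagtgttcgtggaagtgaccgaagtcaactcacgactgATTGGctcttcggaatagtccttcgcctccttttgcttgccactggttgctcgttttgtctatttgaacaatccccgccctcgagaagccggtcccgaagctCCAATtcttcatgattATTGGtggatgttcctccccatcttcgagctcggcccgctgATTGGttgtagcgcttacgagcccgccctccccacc
Ddit4: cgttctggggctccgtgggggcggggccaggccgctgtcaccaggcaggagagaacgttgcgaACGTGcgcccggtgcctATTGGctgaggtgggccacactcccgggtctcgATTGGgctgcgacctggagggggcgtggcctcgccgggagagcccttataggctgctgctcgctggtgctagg
The Mtor window held 4 CCAAT boxes and the Ddit4 window held 2. The full promoter windows of these genes, which run past the printed ends, held the same counts. Of all 32851 full promoter windows, 37.4% held at least 1. ACGTG, searched on both strands, had 1 match in the Ddit4 window and 0 in the Mtor window, whether printed or full. Of all full windows, 19.6% had a match. These matches describe the letters only.

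The genes lie apart on 8 chromosomes. By GENCODE on GRCm38, Mtor spans chr4:148448611-148557683, Rptor chr11:119602905-119899576, Rheb chr5:24802823-24842624, Akt1s1 chr7:44848991-44855421, Ddit4 chr10:59949669-59951834 and Tsc1 chr2:28641228-28691167. Rictor (chr15:6708379-6800401) and Deptor (chr15:55112317-55259271) share a chromosome, as do Mlst8 (chr17:24473551-24479078) and Tsc2 (chr17:24595816-24632630). Exons of Tsc2 overlap Pkd1, those of Akt1s1 overlap Tbc1d17 and those of Mlst8 overlap Bricd5, each on the opposite strand.

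The libraries held 90728590 to 115117649 unique molecular identifiers (UMIs, 1 for each captured mRNA molecule) over 13229 to 16385 cell barcodes, and 6389 to 9924 cells per library passed the filters. Barcodes with 50% or more mitochondrial UMIs made up 32.7% to 49.8% of a library. SP-ND had the highest share, beside 42.1% for SP-HFD, 33.2% for WT-HFD and 32.7% for WT-ND. The part of this larger loss of barcodes in the SP-ND levels below was not tested. Any 2 libraries had between 54 and 77 barcodes in common. Cells were clustered and a cluster was called "X-like" from its marker genes, and 11 such classes had at least 50 cells in every library. The class of proximal tubule-like cells had 1972 cells on ND and 1118 on HFD in WT mice, and 872 on ND and 523 on HFD in SP mice, and their median depth was 9194.5, 9310.5, 15524 and 14811 UMIs in that order. The mutated gene Slc5a2 was at 293 CPM on ND and 237 on HFD in WT mice, and 40.9 on ND and 85.1 on HFD in SP mice in these cells, lower in both SP libraries, where CPM is counts per 1000000 UMIs. A mixed tubule cluster was kept apart from the proximal tubule-like class. It was picked by markers listed for PT-HFD, the injured proximal tubule population that the paper reports mainly in WT-HFD. Among clusters with a positive mean log2 ratio of proximal tubule markers and at least 1% of cells, it scored highest for these, at -0.13. Of its 977 cells, 958 came from WT-HFD, and whether it is the population of the paper was not tested. In WT-HFD, the thin limb-like class also held 23006 CPM of the 12 proximal tubule markers summed, against 995 to 3287 CPM in the other 3 libraries.

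Levels are given as CPM, the UMIs of the gene per 1000000 UMIs of the class in a library, with an exact Poisson 95% interval. A difference is the log2 ratio of 2 CPM values with an exact 95% interval. Both intervals cover counting error only, and not differences between animals. The matrices count 3′ ends and were not scaled to transcript length, so levels are compared between cells and not between genes. A gene is said to be called where the 2 libraries together held at least 50 of its UMIs, the ratio passed 1.5-fold and the interval left out 0. The share of all genes tested that were called in the same comparison is given as the background.

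The members differed in where they were expressed. Mtor was highest in proximal tubule-like cells in 4 of 4 libraries, where its mean over the libraries was 68.9 CPM, while the means of the other 10 classes lay between 13.7 and 33.2 CPM. Rheb was lowest of the 11 classes in proximal tubule-like cells and highest in podocyte-like cells in 4 of 4 libraries. Ddit4 and Rictor were also lowest in proximal tubule-like cells in 4 of 4 libraries. Tsc2 was highest in podocyte-like cells in 4 of 4 libraries, and Ddit4 in connecting tubule or principal-like cells in 4 of 4. Deptor was highest in distal convoluted tubule-like cells in 2 libraries and in thick ascending limb-like cells in the other 2. Mlst8, with 214 to 294 UMIs over all kept cells of a library, and Rptor had no class that was highest in more than 2 libraries. The members and the other listed pathway genes were left out of the variable genes used for clustering. The classes still came from the same cells, so these orders are a description.

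**Figure D1:**
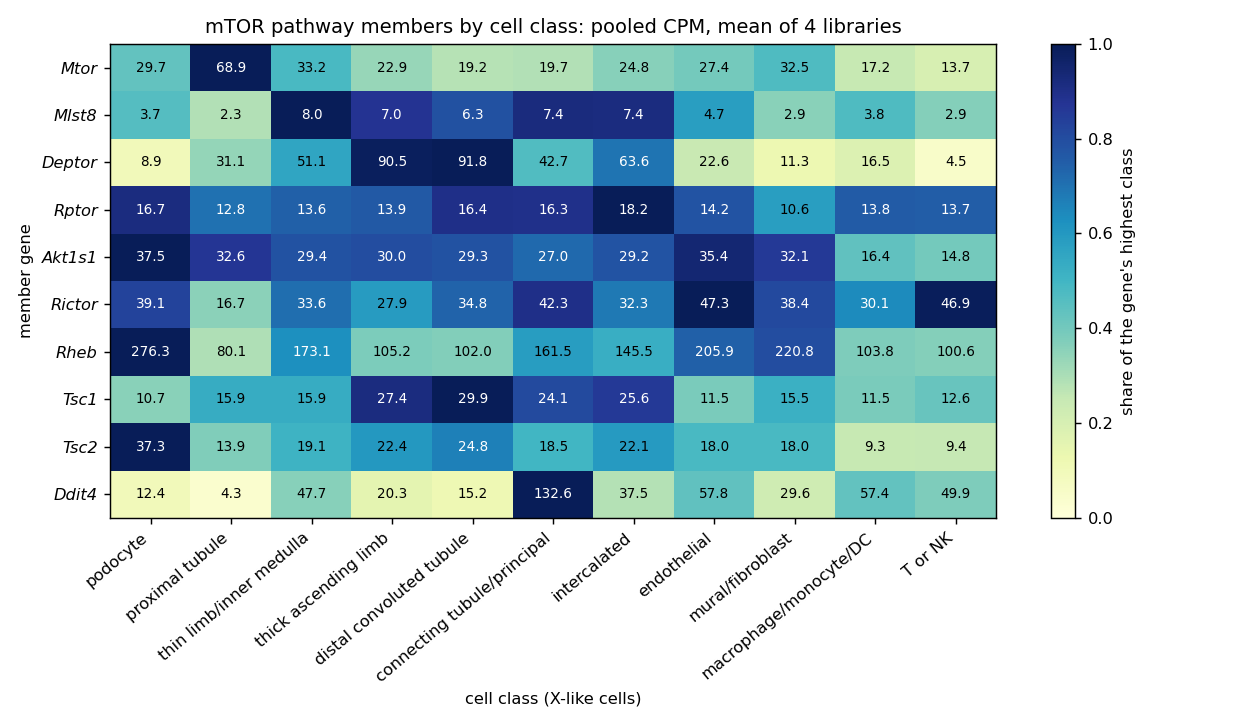
Heat map of the 10 members (rows) in the 11 cell classes found in all 4 libraries (columns). Each number is the mean CPM over the 4 libraries and the colour is that mean as a share of the gene's highest class, so that Mtor peaks in proximal tubule-like cells, Rheb and Tsc2 in podocyte-like cells and Ddit4 in connecting tubule or principal-like cells.

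Mtor in proximal tubule-like cells was higher on the high-fat diet in both genotypes. Its level was 55.9 CPM (95% interval 52.7 to 59.2, 1139 UMIs) in WT-ND and 78.5 CPM (74.1 to 83.1, 1172 UMIs) in WT-HFD. In SP mice it was 44.7 CPM (41.1 to 48.5, 573 UMIs) in SP-ND and 96.5 CPM (89.6 to 103.7, 741 UMIs) in SP-HFD. The 4 intervals did not overlap, with SP-ND lowest and SP-HFD highest, so SP mice had the lower level on the normal diet and the higher level on the high-fat diet. The diet ratio in WT mice was 0.49 (0.37 to 0.61), a 1.40-fold difference that stayed within the 1.5-fold limit, and it was 0.27 with the mixed tubule cluster added. In SP mice it was 1.11 (0.95 to 1.27), a 2.16-fold difference past the limit. The genotype ratio, SP over WT, was -0.32 (-0.47 to -0.18) on the normal diet and 0.30 (0.16 to 0.43) on the high-fat diet. These 4 comparisons share libraries, and a low SP-ND library enters both its diet and its genotype ratio.

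Of the members tested in proximal tubule-like cells, 0 of 10 were called in WT-HFD against WT-ND, where the background was 8.67% of genes higher and 5.19% lower. In SP-HFD against SP-ND, 1 of 9 was called higher, Mtor, and 1 lower, Deptor, against backgrounds of 9.15% and 7.02%. In SP-ND against WT-ND, 1 of 10 was called higher, Ddit4, against a background of 3.91% higher and 3.14% lower. In SP-HFD against WT-HFD the count was 0 of 10, with backgrounds of 2.21% and 1.78%. The median log2 ratio of the members tested was -0.02, -0.06, 0.11 and 0.14 in these comparisons, and that of all genes tested was 0.03, 0.02, 0.07 and 0.06. With 9 or 10 genes tested, 1 call is not enough to set the members as a group apart from the background.

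**Figure D2:**
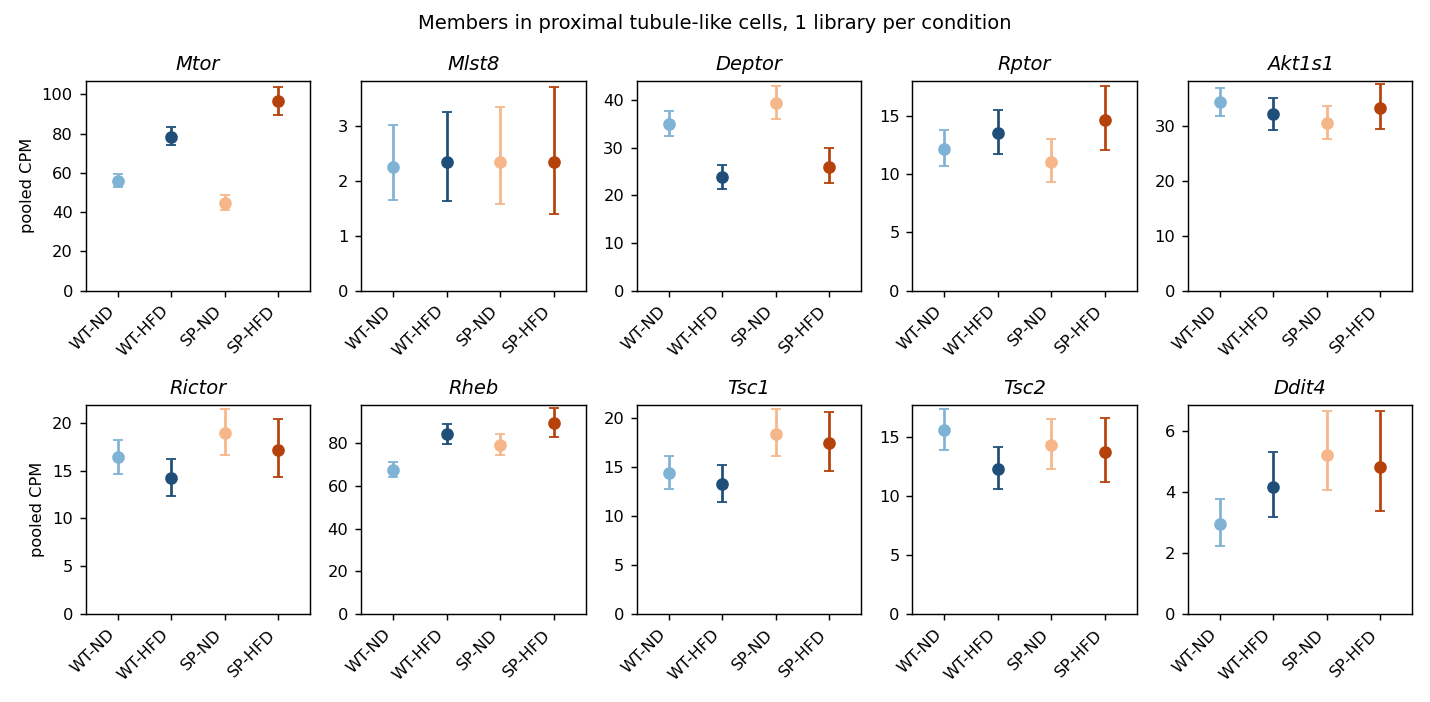
Level of each of the 10 members in proximal tubule-like cells, in CPM, with 1 point per library and exact Poisson 95% intervals as bars. Mtor runs from 44.7 CPM in SP-ND to 96.5 CPM in SP-HFD with no overlap between libraries, while Deptor is lower in both high-fat libraries and Akt1s1 stays between 30.5 and 34.3 CPM.

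At a finer clustering the proximal tubule-like cells divided mainly into a cluster high in Slc5a12, a lactate transporter of the early proximal tubule, and one high in Slc7a13, an amino acid transporter of the late proximal tubule. Mtor in the Slc5a12-high cluster was 54.3 CPM on ND and 68.7 on HFD in WT mice, and 48.4 on ND and 76.4 on HFD in SP mice. In the Slc7a13-high cluster it was 57.9, 88.9, 41.2 and 119 CPM in the same order. The high-fat library was the higher one in both clusters and both genotypes, and the difference was larger in the Slc7a13-high cluster, with ratios of 0.62 (0.46 to 0.78) in WT and 1.53 (1.31 to 1.75) in SP mice. In the Slc5a12-high cluster the ratios were 0.34 (0.16 to 0.52) and 0.66 (0.42 to 0.90). The order of the libraries was the same in both clusters. In the Slc5a12-high cluster the genotype ratio was -0.17 (-0.38 to 0.05) on the normal diet and 0.15 (-0.05 to 0.36) on the high-fat diet. Both of these intervals held 0, so the genotype difference of the pooled cells was not resolved in that cluster. The Slc5a12-high cluster was 50.2% to 55.6% of the cells of both clusters in each library, and the clusters were looked at separately after the pooled values had been seen.

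Because depth per cell differed between libraries, every cell was also thinned to 1000 UMIs, leaving out 2 to 7 shallower proximal tubule-like cells a library, which left the order of the libraries as it was in CPM. The share of proximal tubule-like cells with an Mtor UMI was then 5.70% (Clopper-Pearson 95% interval 4.72 to 6.82) on ND and 7.53% (6.05 to 9.24) on HFD in WT mice, and 3.91% (2.72 to 5.42) on ND and 9.79% (7.38 to 12.7) on HFD in SP mice, from 40.2%, 52.8%, 43.6% and 63.3% without thinning. Unlike the CPM intervals, the thinned WT-ND interval of proximal tubule-like cells overlapped those of WT-HFD and SP-ND, and that of WT-HFD overlapped SP-HFD. The SP-ND and SP-HFD intervals did not overlap. In thick ascending limb-like cells the thinned shares were 2.03%, 2.75%, 1.96% and 1.89%. In T or NK-like cells, where any level from free RNA would be included, the thinned shares were 0.543%, 2.1%, 0.80% and 2.75%, and their intervals overlapped those of the proximal tubule-like cells in SP-ND only (0.0203 to 4.38). In WT-HFD the intervals nearly met, at 0.435 to 6.01 beside 6.05 to 9.24. These intervals cover the counting of cells only, and the part of free RNA was not tested. The WT-ND cells of that class had 2 Mtor UMIs, 4.87 CPM (0.59 to 17.6), beside 13672 CPM of the 12 proximal tubule markers summed. This was the library of that class with the least Mtor and the most markers. Over the 4 libraries Mtor ran there from 4.87 to 19.8 CPM on 2 to 10 UMIs. The markers summed to 3538 CPM in WT-HFD, 2386 CPM in SP-ND and 3040 CPM in SP-HFD. Neutrophil-like cells had 0 Mtor UMIs in 3 of the 4 libraries, at a depth at which 3 UMIs would be 31.0 to 48.4 CPM. The remaining library had 1 UMI (13.5 CPM). In SP-ND the exact upper limit for 0 UMIs was 38.1 CPM, and WT-HFD had only 31 such cells.

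Several measures were set beside the Mtor values in proximal tubule-like cells. Mitochondrial UMIs made up 33.3% on ND and 32.3% on HFD in WT mice, and 37.6% on ND and 32.6% on HFD in SP mice. The 12 proximal tubule markers summed to 73852 CPM on ND and 64791 on HFD in WT mice. In SP mice they summed to 36591 CPM on ND and 62161 on HFD. The SP-ND library, lowest in Mtor, was also lowest in this sum, to which abundant genes add most. Single markers differed, with Slc34a1 at 2723, 3122, 2183 and 2792 CPM and Lrp2 at 1404, 911, 1318 and 945 CPM in the same order. Lrp2 in SP-ND was thus above both high-fat libraries. Of 6 dissociation and heat shock genes, 4 were called higher (Fos, Atf3, Hspa1a and Hspa1b) and 1 lower (Egr1) in WT-HFD against WT-ND, and 2 higher (Hspa1a and Hspa1b) and 1 lower (Egr1) in SP-HFD against SP-ND, with summed levels of 97.7, 130, 148 and 124 CPM in the order above. Malat1, a nuclear long noncoding RNA, was at 26686, 24586, 22129 and 25001 CPM in that order. Mat2a, the enzyme that makes S-adenosylmethionine, was at 171, 214, 179 and 189 CPM. Malat1, Neat1 and Mat2a were called in none of the 4 comparisons (0 of 3 in each). The gene Angptl7 lies inside Mtor on the opposite strand with no shared exon, and it was also high in proximal tubule-like cells, with 246, 254, 191 and 228 CPM. The part of Angptl7 transcripts, the marker level, the dissociation genes and the mitochondrial share in the Mtor level was not tested.

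Over the classes, Mtor did not differ by diet in a common direction. Among classes with at least 50 UMIs, proximal tubule-like cells included, the high-fat library was higher in 6 of 9 classes in WT and in 3 of 10 in SP mice. In podocyte-like cells Mtor was at 37.1 CPM on ND and 24.8 on HFD in WT mice, and 25.5 on ND and 31.5 on HFD in SP mice. The WT diet ratio there, -0.59 (-1.14 to -0.04), was called lower on 50 and 71 UMIs, with a background of 5.31% lower, and under 5 of 7 alternatives (-0.75 to -0.47). WT-ND was the high library of the 4 in this class. Over all kept cells Mtor was at 38.7, 42.8, 30.1 and 37.7 CPM, values in which the mix of classes and the level per cell cannot be told apart.

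Deptor, the inhibitory subunit of both complexes, was lower on the high-fat diet in proximal tubule-like cells of both genotypes. It was at 35.1 CPM (32.6 to 37.7, 715 UMIs) in WT-ND and 23.8 CPM (21.4 to 26.4, 355 UMIs) in WT-HFD. It was at 39.3 CPM (36.0 to 42.9, 504 UMIs) in SP-ND and 26.0 CPM (22.6 to 29.9, 200 UMIs) in SP-HFD. Both normal-diet intervals lay above both high-fat intervals. The diet ratios were nearly the same, -0.56 (-0.75 to -0.38) in WT and -0.60 (-0.84 to -0.36) in SP mice, and fell on either side of the limit at 1.48-fold and 1.51-fold. The genotype ratios were 0.17 (-0.0022 to 0.33) on the normal diet and 0.13 (-0.13 to 0.39) on the high-fat diet. The WT and SP diet comparisons share no library.

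Across classes, whose ratios come from the same pair of libraries in each genotype and so are not independent, the same direction was common. Deptor was lower in the high-fat library in 6 of 7 classes in WT mice and in 6 of 8 in SP mice, with median ratios of -0.50 and -0.19. In connecting tubule or principal-like cells it was at 52.9 CPM on ND and 31.3 on HFD in WT mice, and 49.4 on ND and 37.3 on HFD in SP mice, and the WT ratio of -0.76 (-1.15 to -0.37) was called lower, with a background of 7.19% lower. In thick ascending limb-like cells, where Deptor was abundant, it was at 103, 72.7, 98.4 and 87.6 CPM and no ratio was called. In thin limb-like cells it was at 77.9, 38.0, 47.0 and 41.5 CPM, with WT-ND the high library. The WT diet ratio there was -1.04 (-1.48 to -0.59) with a background of 20.9% lower, this is the class in which the WT-HFD library held proximal tubule markers, and over the alternatives the ratio ran from -1.27 to -0.66. SP-ND against WT-ND was called lower in the same class at -0.73 (-1.30 to -0.17) with a background of 3.54% lower, and higher in endothelial-like cells at 0.60 (0.08 to 1.12).

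Rheb, which turns mTORC1 on, was somewhat higher on the high-fat diet in most classes, though the classes share libraries and are not independent. In proximal tubule-like cells it was at 67.7 CPM (64.1 to 71.3) on ND and 84.1 CPM (79.5 to 88.9) on HFD in WT mice, and 79.1 CPM (74.3 to 84.2) on ND and 89.4 CPM (82.9 to 96.4) on HFD in SP mice. WT-ND stood below the other 3 libraries, whose intervals overlapped. The diet ratios were 0.31 (0.20 to 0.43) in WT and 0.18 (0.03 to 0.32) in SP mice. In podocyte-like cells, its highest class, Rheb was at 238 CPM on ND and 324 on HFD in WT mice, and 244 on ND and 299 on HFD in SP mice, with both high-fat libraries above both normal-diet libraries. Rheb was higher in the high-fat library in 9 of 12 classes in WT mice and in 11 of 11 in SP mice, with median ratios of 0.22 and 0.32, and none passed 1.5-fold in either diet comparison. It was called in 1 class in SP-HFD against WT-HFD, mural or fibroblast-like cells, at 0.63 (0.38 to 0.89) with a background of 26.2% higher, and it was called under 2 of 8 alternatives, with a ratio of -0.01 for clusters made without integration. The WT-HFD cells of that class held 8655 CPM of proximal tubule markers and those of SP-HFD held 2121 CPM.

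**Figure D3:**
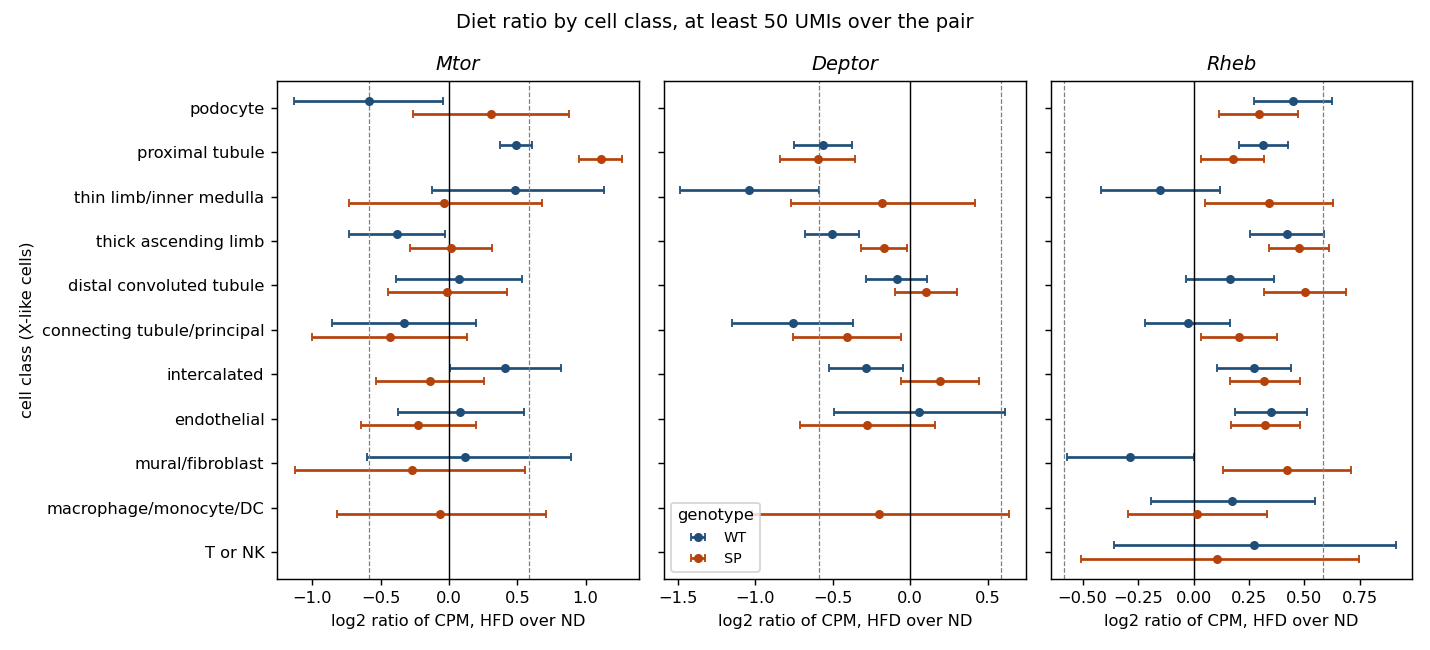
Log2 ratio of the high-fat to the normal-diet library for Mtor, Deptor and Rheb in each cell class with at least 50 UMIs, with WT mice in blue, SP mice in orange, exact 95% intervals as bars and dashed lines at 1.5-fold. Mtor stands to the right in proximal tubule-like cells (0.49 and 1.11), Deptor lies mostly left of 0 and Rheb mostly right of 0.

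The scaffolds and the shared subunit differed little in proximal tubule-like cells. Rptor was at 12.1 CPM on ND and 13.5 on HFD in WT mice, and 11 on ND and 14.6 on HFD in SP mice, and only its SP diet ratio of 0.41 (0.03 to 0.77) had an interval off 0. Rictor was at 16.4, 14.2, 18.9 and 17.2 CPM in the same order, and the intervals of its 4 ratios all held 0. Mlst8 was at 2.26, 2.34, 2.34 and 2.34 CPM on 18 to 46 UMIs a library, too few to show a difference of 1.5-fold, as its WT diet interval of -0.62 to 0.72 shows. Akt1s1, also called PRAS40, was at 34.3, 32.1, 30.5 and 33.3 CPM with 4 overlapping intervals.

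Rptor stood apart in connecting tubule or principal-like cells, where it was at 11.7 CPM (33 UMIs) on ND and 22.3 CPM (64 UMIs) on HFD in WT mice, and 11.3 CPM (40 UMIs) on ND and 19.9 CPM (62 UMIs) on HFD in SP mice. Both high-fat libraries were above both normal-diet libraries. The ratios were 0.93 (0.30 to 1.58) in WT and 0.82 (0.22 to 1.43) in SP mice, both called higher, with backgrounds of 6.08% and 5.25% higher. Deptor and Rptor, 1 lower and 1 higher, were the called members of 9 tested in this class in WT mice, and Rptor was the only 1 of 9 in SP mice. In endothelial-like cells 3 of 9 members were called higher in SP-ND against WT-ND, Rptor at 0.79 (0.11 to 1.51), Deptor and Ddit4, against a background of 3.29% higher, and the Deptor call held under 4 of 7 alternatives (0.49 to 0.67).

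The TSC genes, the brake on RHEB, were within the 1.5-fold limit in proximal tubule-like cells, where Tsc1 was the higher in SP mice, and Tsc2 was called lower on the high-fat diet in WT podocyte-like cells. In proximal tubule-like cells Tsc1 was at 14.4 CPM on ND and 13.3 on HFD in WT mice, and 18.4 on ND and 17.4 on HFD in SP mice, so both SP libraries were above both WT libraries. Its genotype ratios were 0.35 (0.10 to 0.60) on the normal diet and 0.40 (0.07 to 0.72) on the high-fat diet, within the 1.5-fold limit. Tsc2 was at 15.6, 12.3, 14.3 and 13.7 CPM, with a WT diet ratio of -0.34 (-0.61 to -0.08). In podocyte-like cells, its highest class, Tsc2 was at 50.7 CPM (97 UMIs) on ND and 26.7 CPM (54 UMIs) on HFD in WT mice, and 38.3 CPM (72 UMIs) on ND and 33.5 CPM (67 UMIs) on HFD in SP mice. The WT diet ratio of -0.92 (-1.43 to -0.43) was called lower, so that Mtor and Tsc2 were the 2 of 6 members called in WT podocyte-like cells, both lower, where the background was 5.31% lower, and no ratio of Tsc2 was called there in SP mice.

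The remaining calls of these genes were few and rested on small counts. Tsc2 was higher in SP-HFD than in WT-HFD in connecting tubule or principal-like cells at 0.67 (0.09 to 1.27) on 69 and 40 UMIs, with a background of 2.65% higher, and it was 0.40 and not called with means over cells. Tsc1 was lower in the same comparison in endothelial-like cells at -0.88 (-1.55 to -0.23) on 34 and 51 UMIs, with a background of 1.81% lower, and it was -0.56 and not called with means over cells. Rictor in thin limb-like cells was lower in WT-HFD than in WT-ND at -0.87 (-1.47 to -0.27) and higher in SP-HFD than in WT-HFD at 0.64 (0.09 to 1.20), with backgrounds of 20.9% lower and 22.3% higher, and without integration the ratios were -0.42 and 0.20 and neither was called. Both of those ratios rest on the WT-HFD thin limb-like cells with proximal tubule markers, and the part of those markers was not tested.

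Ddit4 was the member called in the most classes, in the comparison of genotypes on the normal diet. Over all kept cells it was at 19.1 CPM (980 UMIs) on ND and 21.6 CPM (1332 UMIs) on HFD in WT mice, and 38.2 CPM (1789 UMIs) on ND and 33.3 CPM (1459 UMIs) on HFD in SP mice. Both SP libraries were above both WT libraries. The genotype ratio was 1.00 (0.89 to 1.11) on the normal diet and 0.62 (0.51 to 0.73) on the high-fat diet, both called higher as the only 1 of 10 members, with backgrounds of 6.3% and 7.96% higher. Over all deposited barcodes, with no filter, the ratios were 0.54 and 0.29 and neither was called. The ratio on the high-fat diet was also not called with nuclear genes only (0.56) and with ratios centred on the median of all genes (0.42), so that its call held under 4 of 7 alternatives. Here too the mix of classes and the level per cell cannot be told apart, so the classes are given next.

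In SP-ND against WT-ND, Ddit4 was called higher in 8 of the 10 classes with at least 50 UMIs. Its level in distal convoluted tubule-like cells was 8.48 CPM on ND and 11.3 on HFD in WT mice, and 30.7 on ND and 10.4 on HFD in SP mice. In thick ascending limb-like cells it was 11.5, 20.0, 29.7 and 19.9 CPM in that order. In macrophage, monocyte or dendritic-like cells it was 21.0, 49.6, 98.2 and 60.8 CPM. SP-ND was the highest library in each of these 3 classes and WT-ND the lowest. The SP-ND to WT-ND ratios were 1.85 (1.33 to 2.41), 1.37 (0.98 to 1.78) and 2.23 (1.56 to 2.97), and the backgrounds were 1.66%, 2.32% and 3.37% of genes higher.

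The other called classes had the same library on top. Ddit4 in endothelial-like cells was at 36.5 CPM on ND and 46.3 on HFD in WT mice, and 86.3 on ND and 62.0 on HFD in SP mice, with a ratio of 1.24 (0.91 to 1.59). In thin limb-like cells it was at 27.6, 29.2, 80.6 and 53.4 CPM, with a ratio of 1.55 (0.90 to 2.23) and a background of 2.51% higher. SP-ND was again above the other 3 libraries in both. The ratio was 1.20 (0.39 to 2.06) in podocyte-like cells, on 43 and 19 UMIs, and 1.19 (0.37 to 2.07) in mural or fibroblast-like cells, on 52 and 17 UMIs, with backgrounds of 1.91% and 6.12% higher. In proximal tubule-like cells Ddit4 was low, at 2.94 CPM (2.25 to 3.79, 60 UMIs) on ND and 4.15 CPM (62 UMIs) on HFD in WT mice, and 5.23 CPM (4.05 to 6.64, 67 UMIs) on ND and 4.82 CPM (37 UMIs) on HFD in SP mice, with a ratio of 0.83 (0.30 to 1.36). The WT diet ratio in these cells was 0.50 (-0.04 to 1.03), and it was 1.56 with the mixed tubule cluster of WT-HFD added, which also turned the genotype ratio on the high-fat diet from 0.21 (-0.41 to 0.82) to -0.85.

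The 2 classes without the difference were tubule cells of the collecting system. Connecting tubule or principal-like cells, the class with the most Ddit4, had 138 CPM on ND and 115 on HFD in WT mice, and 129 on ND and 149 on HFD in SP mice. Intercalated-like cells had 45, 32.5, 40.6 and 31.8 CPM. The SP-ND library was not the highest in either, and the lowest of the 10 class ratios, -0.15, was in this pair. The median over the 10 classes was 1.22, and these ratios all come from the same pair of libraries.

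The diet ratios of Ddit4 went opposite ways in the genotypes in several classes. In SP mice Ddit4 was called lower in the high-fat library in 5 of 11 classes, which were distal convoluted tubule-like (-1.55), mural or fibroblast-like (-1.26), podocyte-like (-1.19), macrophage, monocyte or dendritic-like (-0.69) and thin limb-like cells (-0.59), with backgrounds of 2.39%, 4.79%, 3.86%, 7.37% and 3.5% lower. The call in macrophage, monocyte or dendritic-like cells held under 6 of 8 alternatives and that in thin limb-like cells under 5 of 7. In WT mice it was called higher in 2 of 8, which were macrophage, monocyte or dendritic-like (1.24) and thick ascending limb-like cells (0.80), with backgrounds of 4.28% and 2.95% higher. The SP ratios and the genotype ratios on the normal diet share the SP-ND library, which was the highest. On the high-fat diet the genotype ratio was called in 1 of 9 classes, thin limb-like cells at 0.87 (0.40 to 1.35), or 0.12 without integration, with a background of 22.3% higher. This is the class with proximal tubule markers in WT-HFD, and all 6 dissociation and heat shock genes were called higher there in the same comparison.

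**Figure D4:**
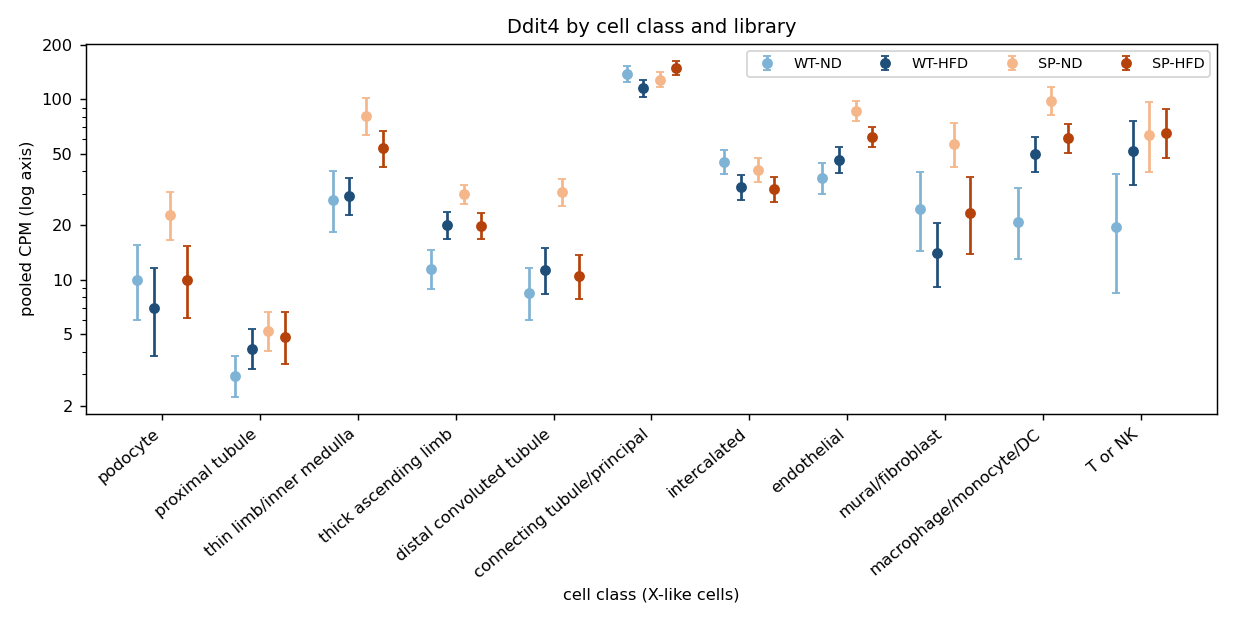
Ddit4 level in CPM on a log axis for each cell class, with 1 point per library and exact Poisson 95% intervals as bars. SP-ND is the highest library in distal convoluted tubule-like (30.7 CPM), endothelial-like (86.3 CPM) and thin limb-like cells (80.6 CPM), but not in connecting tubule or principal-like or intercalated-like cells.

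Genes that respond to known inducers of Ddit4, or to cell dissociation, were set beside it in SP-ND against WT-ND. Of 5 glucocorticoid-responsive genes, Per1 was called higher in distal convoluted tubule-like and thick ascending limb-like cells, Tsc22d3 and Per1 in macrophage, monocyte or dendritic-like cells, and none in endothelial-like or thin limb-like cells. Of 6 hypoxia-responsive genes, Ankrd37 was called higher in thick ascending limb-like cells and Slc2a1 and Egln3 in endothelial-like cells, where Vegfa was lower, Ndrg1 was called lower in macrophage, monocyte or dendritic-like cells, and none was called in distal convoluted tubule-like or thin limb-like cells. The summed level of 6 dissociation and heat shock genes in SP-ND and WT-ND was 687 and 495 CPM in distal convoluted tubule-like, 1118 and 819 CPM in thick ascending limb-like, 6186 and 5528 CPM in endothelial-like, 9520 and 9859 CPM in macrophage, monocyte or dendritic-like and 6602 and 9154 CPM in thin limb-like cells. Over the 8 classes in which Ddit4 was called, at least 1 gene was called higher in 6 for the glucocorticoid list, 2 for the hypoxia list and 5 for the dissociation list. At least 1 was called lower in 0, 3 and 2 of them. The background ran from 1.66% of genes higher in distal convoluted tubule-like to 6.12% in mural or fibroblast-like cells. The lists differ in length and no expected count was set beside these counts, so they do not rank the lists. In connecting tubule or principal-like cells, where Ddit4 was not called, Tsc22d3 and Ankrd37 were called higher and Atf3 lower. Proximal tubule markers summed to 7406 CPM in WT-ND and 1577 CPM in SP-ND in endothelial-like cells, and to 4344 and 928 CPM in podocyte-like cells. The part of these programmes and markers in the Ddit4 level was not tested. By diet, in proximal tubule-like cells, the glucocorticoid-responsive Fkbp5 was called higher at 0.71 (0.54 to 0.88) in WT and 1.67 (1.45 to 1.88) in SP mice. Per1 was called higher in both and Tsc22d3 in WT mice. Ddit4 itself, on 37 to 67 UMIs a library, was not called by diet there. The interval of its WT diet ratio, given above, reached past 1.5-fold, so the missing call does not set Ddit4 apart from these genes.

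The wider pathway was read in proximal tubule-like cells from lists of its other parts, against the backgrounds given for the members. By diet these were 8.67% of genes higher and 5.19% lower in WT mice and 9.15% and 7.02% in SP mice. By genotype they were 3.91% higher and 3.14% lower on the normal diet and 2.21% and 1.78% on the high-fat diet. The Rag GTPases and the Ragulator tether mTORC1 to the lysosome when amino acids are present, and 2 of 11 tested genes were called higher in WT-HFD against WT-ND. Rragd, a GTPase induced by TFEB, was at 3.48 CPM on ND and 10.8 on HFD in WT mice, and 7.10 on ND and 15.1 on HFD in SP mice. WT-ND was the lowest library and SP-HFD the highest. Its diet ratios were 1.64 (1.23 to 2.06) in WT and 1.09 (0.68 to 1.50) in SP mice, where it was the only 1 of 11 called, and its genotype ratio on the normal diet was 1.03 (0.56 to 1.50). Lamtor5, a Ragulator subunit, was at 122 CPM in WT-ND and 218 CPM in WT-HFD, a ratio of 0.84 (0.76 to 0.92). Flcn, folliculin, which acts on RagC and RagD, was the only 1 of 11 called in SP-HFD against WT-HFD, at 0.70 (0.28 to 1.11).

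The GATOR and nutrient sensor proteins restrain mTORC1 when amino acids are short or lift that restraint when they are present. Among 15 such genes, Sesn2, a leucine sensor, was lower on the high-fat diet in both genotypes. Sesn2 was at 20.9 CPM on ND and 10.6 on HFD in WT mice, and 16.3 on ND and 8.07 on HFD in SP mice, with both normal-diet libraries above both high-fat libraries. The ratios were -0.99 (-1.26 to -0.72) and -1.02 (-1.45 to -0.60). Wdr59 (-0.66) was the other gene called lower in WT mice, and Castor1 (0.98) was called higher in SP mice on 33 and 28 UMIs. In SP-ND against WT-ND, Sesn1 (0.67) and Sesn3 (0.67) were called higher and Castor1 (-0.86) lower.

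A list of 15 genes held mTOR substrates and other genes downstream of either complex. Of these, 2 were called higher and 2 lower in WT-HFD against WT-ND, and 1 higher and 2 lower in SP-HFD against SP-ND. Beside those backgrounds, counts of 1 or 2 of 15 are not enough to set the list apart. Lpin1, a phosphatidate phosphatase, was at 17.4 CPM on ND and 30.4 on HFD in WT mice, and 20.0 on ND and 36.1 on HFD in SP mice, with ratios of 0.80 (0.60 to 1.01) and 0.85 (0.60 to 1.10). Grb10, an adaptor that dampens insulin signalling, was lower on the high-fat diet with ratios of -0.60 (-0.95 to -0.25) and -0.97 (-1.45 to -0.50). Tfeb was called higher in WT mice at 0.59 (0.26 to 0.92). Sgk1, a kinase activated by mTORC2, was at 9.57 CPM (195 UMIs) on ND and 5.49 CPM (82 UMIs) on HFD in WT mice, and 51.7 CPM (662 UMIs) on ND and 8.20 CPM (63 UMIs) on HFD in SP mice. SP-ND stood apart from the other 3 libraries, which gave a genotype ratio of 2.43 (2.20 to 2.67) and an SP diet ratio of -2.66 (-3.05 to -2.28).

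The remaining lists were short. Of 5 mTORC2 and assembly genes, 2 were called lower in WT-HFD against WT-ND. Prr5, a partner of RICTOR, was at 28.4 CPM in WT-ND and 16.5 CPM in WT-HFD, a ratio of -0.78 (-1.0 to -0.57), and Prr5l was lower too at -1.46 (-2.51 to -0.52) on 12 and 45 UMIs. In SP-HFD Prr5 was at 32.3 CPM, a ratio of 0.97 (0.71 to 1.23) to WT-HFD, and none of the 3 tested in SP-HFD against SP-ND was called. Of the upstream kinases and TSC partners, 0 of 9 were called in each diet comparison. Only 3 of 8 ATF4 outputs had enough UMIs, and 2 of the 3 were called in each diet comparison. Ddit3 was higher on the high-fat diet at 1.06 (0.79 to 1.34) and 1.07 (0.73 to 1.41) and Psat1 lower at -0.76 (-1.27 to -0.26) and -1.02 (-1.65 to -0.43).

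**Figure D5:**
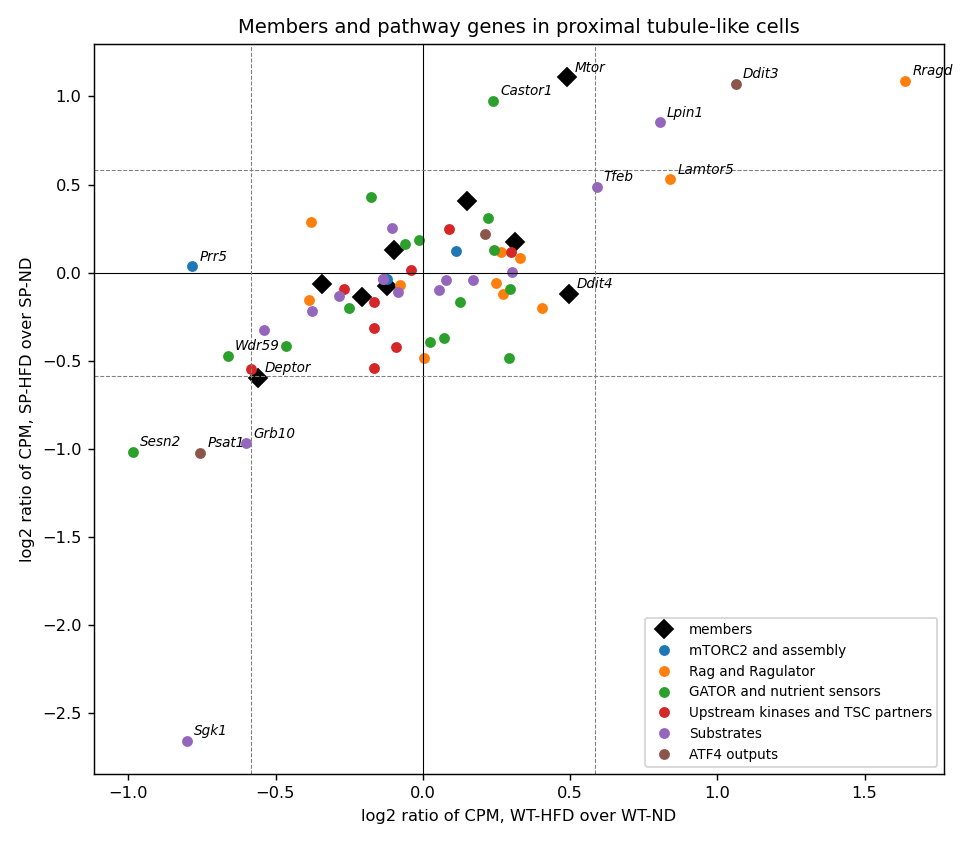
Log2 ratio of the high-fat to the normal-diet library in proximal tubule-like cells, in WT mice (horizontal) and SP mice (vertical), with 1 point per pathway gene with at least 50 UMIs in both comparisons and the members as black diamonds. Rragd and Lpin1 lie to the upper right, Sesn2, Grb10 and Deptor to the lower left, and Sgk1 far down at -2.66 in SP mice.

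The genes whose levels were most like those of 2 members were sought over 51 groups of class and library with at least 50 cells, among 8834 genes with a mean of at least 10 CPM. By Pearson's r of log2(CPM + 1), Mtor was nearest to Mrpl50 (0.90), Akt1s1 (0.88), Mtx1 (0.88), Coq2 (0.87) and Zfp771 (0.87). Ddit4 was nearest to Srsf11 (0.81), Akap8l (0.78), Olfm1 (0.78), Nfrkb (0.77) and Mlxip (0.77). Mrpl50, Mtx1 and Coq2 encode mitochondrial proteins, and Akt1s1 is itself a member. Some groups held few UMIs, such as the neutrophil-like ones with 0 to 1 UMIs of Mtor and of Akt1s1. The part of such groups in r was not tested. Akt1s1 did not peak where Mtor did, with means of 32.6 CPM in proximal tubule-like and 37.5 CPM in podocyte-like cells. The groups also share libraries and depth, so the values of r are a description.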

How the data were processed

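The deposited matrices hold whole-number counts, UMIs per gene and barcode, that the authors made with Cell Ranger on mm10. The submitters' processing notes give version 2.1.1 and the file headers 6.1.2. The members and gene lists were chosen with earlier results of these data known. Named genes were the 10 members, the genes of the listed pathway parts called in proximal tubule-like cells (at most 4 a list), the genes set beside Mtor and Ddit4, and the 5 genes most like Mtor and Ddit4.

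Cells with over 200 and under 5000 genes and under 50% mitochondrial UMIs were kept, and the highest-scoring cells of a doublet score were removed at 0.8% per 1000 cells. Kept cells were normalised, integrated over libraries and clustered (2000 variable genes, 50 components, resolution 0.5) in Seurat 5.3.0 under R 4.3.3, and clusters were named from marker lists. The variable genes left out the members, the listed pathway genes and the genes set beside Mtor and Ddit4. Unnamed clusters, most of their cells of low depth, held 1373 to 3037 cells a library. They entered values over all kept cells and were otherwise read only in the closing section. Counts were summed by class and library in Python 3.11.15 with numpy 2.4.6, scipy 1.17.1 and pandas 2.3.3. Ratios had exact conditional binomial 95% intervals, shares Clopper-Pearson intervals, and a class entered a comparison with at least 50 cells in both libraries. With 1 library per condition no p-value was computed. The interval code was tested on simulated counts. Alternatives were a lower mitochondrial limit, a UMI minimum, no filter, no integration, a finer resolution, thinning, nuclear genes only, means over cells and centred ratios. The counts were read as deposited, without correction for free RNA, which adds UMIs of abundant genes to all cells.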

Additional observations from a re-analysis of the deposited data

Results flagged for a closer look

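Opposite directions under the same contrast were found for 2 members, and in each case the difference between the contrasts was not tested, since each condition was 1 library. Mtor in proximal tubule-like cells was lower in SP than in WT mice on the normal diet, with a log2 ratio of -0.32, and higher on the high-fat diet, with 0.30. In the Slc5a12-high cluster alone, the intervals of both genotype ratios of Mtor held 0. Ddit4 was higher on the high-fat diet in WT mice and lower in SP mice over all kept cells (0.18 and -0.20), in macrophage, monocyte or dendritic-like cells (1.24 and -0.69) and in thick ascending limb-like cells (0.80 and -0.58). In connecting tubule or principal-like cells the diet ratios of Ddit4 had the other order, -0.26 in WT and 0.21 in SP mice.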

How the results depend on the processing

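Of 872 values recomputed under alternatives, 744 stayed within the counting interval of the reported value and 127 moved out of it, which include ratios that were not called and turned sign. The settings differed widely. With the UMI minimum 112 of 112 values stayed, and at the finer resolution 72 of 72. With no filter 18 of 40 moved, with thinning 29 of 63 and under 30% mitochondrial UMIs 22 of 107. In 1 case a called ratio changed sign, and the cause of these moves was not tested. In proximal tubule-like cells the Mtor ratio in SP-HFD against SP-ND was called under 11 of 11 alternatives (0.66 to 1.53), the Deptor ratio under 10 of 10 (-0.71 to -0.60) and the Ddit4 ratio in SP-ND against WT-ND under 8 of 9 (0.49 to 1.21). The alternatives reuse the same libraries, and some changed few cells, so these counts are not independent support. The mixed tubule cluster, for example, added 4 cells to SP-ND and 3 to SP-HFD. The ends of the Mtor range came from the Slc5a12-high and Slc7a13-high clusters. With the mixed tubule cluster added, the Mtor ratio was 0.27 in WT-HFD against WT-ND and 0.51 in SP-HFD against WT-HFD, and the Ddit4 ratio 1.56 and -0.85, which gave 1 called member in each in place of 0. With means over cells the WT diet ratio of Ddit4 was 1.06. In the same comparison 1 member in place of 0 was also called without integration (Deptor), with centred ratios (Deptor), with means over cells (Ddit4) and with each cell thinned to 1000 UMIs (Rheb). Thinning gave Mtor ratios of 1.30 in SP-HFD against SP-ND and -0.50 in SP-ND against WT-ND, and left 1 called member in place of 2 and 0 in place of 1 there, since fewer genes kept 50 UMIs. In SP-ND against WT-ND, 2 members in place of 1 were called under 30% mitochondrial UMIs (Tsc1 added) and with means over cells (Mlst8 added). In the Slc5a12-high cluster, chosen after seeing the data, the Mtor ratio was 0.34 and 0.66 by diet in WT and SP mice and -0.17 and 0.15 by genotype on the normal and high-fat diet, and in the Slc7a13-high cluster 0.62, 1.53 and, on the normal diet, -0.49. Rheb in mural or fibroblast-like cells, SP-HFD against WT-HFD, was -0.011 without integration. No paired analysis was possible because each condition was 1 library with no replicate number shared between groups. An alternative that left under 50 UMIs of a gene gave no value. Mlst8 and, in proximal tubule-like cells, Ddit4 are limited by depth.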

Other observations

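Cells that belonged to no named class were read on their own. The mixed tubule cluster of WT-HFD had Mtor at 46.6 CPM, Deptor at 35.1 CPM, Rheb at 111 CPM and Ddit4 at 17.2 CPM, of which the Mtor level was below that of the WT-HFD proximal tubule-like cells (78.5 CPM) and the Ddit4 level above it (4.15 CPM). The unnamed clusters, read as 1 pool, mix low-depth cells with deeper ones, for example 573 cells of 1 cluster whose median depth was 7341 UMIs. Mtor in this pool was at 42.6 CPM on ND and 48.5 on HFD in WT mice, and 29.6 on ND and 58.2 on HFD in SP mice, the same order of libraries as in proximal tubule-like cells. The pool held much proximal tubule RNA, with the 12 markers summed at 8716 CPM in SP-ND to 21550 CPM in WT-ND. The marker Slc34a1 was at 909 CPM in SP-HFD to 1527 CPM in WT-ND, beside 2183 to 3122 CPM in proximal tubule-like cells. The order of libraries is therefore not a reading from other cell types alone, and the part of proximal tubule RNA in it was not tested. Ddit4 in the same pool was at 9.44, 11.5, 25.9 and 13.9 CPM, with SP-ND again the highest library. In T or NK-like cells Ddit4 was at 19.5, 51.4, 63.5 and 65.3 CPM on 8, 26, 22 and 42 UMIs, with WT-ND the lowest library.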
